A study of Arabidopsis thaliana with 18 samples.

Results

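Leaves of Arabidopsis thaliana are often treated with solutions that carry silwet, an organosilicone surfactant that spreads water over the waxy surface. The comparison described here follows plants that received the surfactant alone, without any hormone, and sets 28 h after treatment against 4 h. It is made of the arrays whose source labels name the natural accession Kin-0, 0.02% silwet and one of those times, which are 6 of the 18 arrays of the series, 3 at 28 h and 3 at 4 h. The groups used are Kin-0 with 0.30 mM salicylic acid (SA, a defence hormone) in 0.02% silwet at 4, 28 and 52 h, and Kin-0 with 0.02% silwet alone at the same times, each with 3 biological replicates. Kin-0 and 0.02% silwet are thus common to all groups, and plants without silwet were not analysed here. The labels name neither tissue nor plant age, nor what the replicates of a number share, so the p-values measure the spread between these samples. Hours since treatment, plant age and day of harvest cannot be told apart in this comparison. RNA was read on ATH1 arrays, on which a set of short probes reports each gene as a signal in arbitrary units.

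A treated plant responds to handling, wetting and wounding within minutes to hours. Calcium signals act through calmodulin and its relatives, and RNAs of rapid stress regulators rise and decay early. When respiration is disturbed, mitochondria signal to the nucleus, and genes for alternative respiratory enzymes and detoxification are known to be switched on. The comparison asks how RNA levels differed between a day and a few hours after the surfactant was given.

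At 28 h the main pattern was lower signal. Of 15212 probe sets tested, 654 (4.3%) differed between 28 h and 4 h with limma at an adjusted p under 0.05, which is what called means below. Signal was lower at 28 h for 525 of them (3.45% of those tested) and higher for 129 (0.848%). The median log2 change, 28 h minus 4 h, was -1.26 among those called lower, 0.82 among those called higher and -0.01 over all probe sets tested. A change of at least 2-fold was met by 380 of the lower and 36 of the higher probe sets. The arrays of the groups did not overlap for 523 of the 654, against 11.8% of all probe sets tested. The median signal of the probe sets called lower was 67.2 at 28 h and 179 at 4 h, and that of the probe sets called higher was 197 at 28 h and 104 at 4 h. At 4 h the median over all probe sets tested was 77.1. A single gene name was carried by 255 of the lower and 64 of the higher probe sets, and the others are unnamed here.

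**Figure D1:**
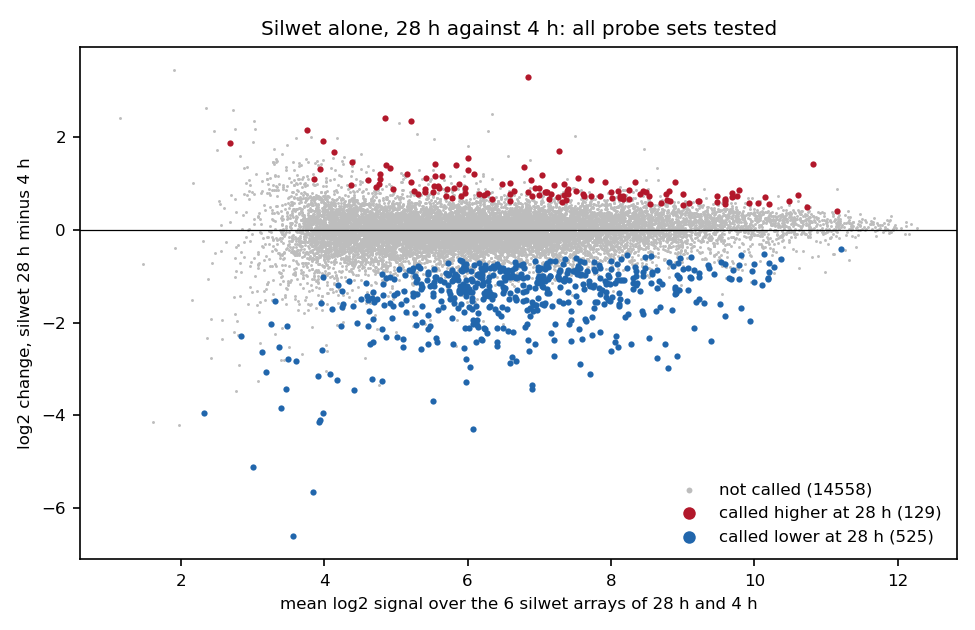
Each point is 1 of 15212 probe sets, placed by its mean log2 signal over the 6 silwet arrays (x axis) and its log2 change, 28 h minus 4 h (y axis). Red points are the 129 called higher at 28 h and blue points the 525 called lower, which reach larger changes, and grey points were not called.

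Array medians ran from 26.7 to 35.6 over the 18 arrays, after scaling to a common trimmed mean. The lowest 40 percent of the probe sets on an array are called dim here, those at or under a level of 16.8 to 20.7 on the 6 arrays compared. The log2 ratio of 3' over 5' probe sets, a measure of how intact the RNA was, was averaged over 6 control pairs, for actin, GAPDH and ubiquitin. It was 1.63, 0.91 and 1.11 at 28 h in replicates 1 to 3 and 1.56, 0.90 and 0.91 at 4 h. Replicate 1 had the highest ratio at both times. With this ratio in the fit, 699 probe sets were called, 639 of them among the 654. Leaf markers were bright on every array. Their summed signal over 9 probe sets was 19545, 22696 and 22034 at 28 h and 19455, 23556 and 19836 at 4 h, and the groups overlapped. The root pattern took only PRP39 and PRP39-2, named for an RNA processing factor, so no root marker was measured here. In RNA from whole samples, fewer cells of a type and less RNA per cell cannot be told apart.

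The numbers of the replicates carried much of the spread. How far arrays lay from their own group's mean correlated, across probe sets, at 0.39 to 0.63 between arrays of 28 h and 4 h with equal numbers. Between arrays with unequal numbers it correlated at -0.63 to 0.28. Deviations cancel within a group, so high values for equal numbers go with low ones for unequal numbers. The replicate number was in the fit as a block, as the rule of this comparison had set. Without the block, 92 probe sets were called (87 lower, 5 higher), all of them among the 654. Single arrays moved the counts as well. The number called was 300 without replicate 3 of 28 h, 373 without replicate 2 of 28 h, 295 without replicate 2 of 4 h and 270 without replicate 3 of 4 h. Leaving replicate 1 out of all groups gave 1351 calls (854 lower, 497 higher), 553 of them among the 654, and leaving out replicate 2 or replicate 3 throughout gave 79 in each case.

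Several of the genes with the largest decrease were dim on every 28 h array. AT1G74870 had signals of 0.599, 1.11 and 2.65 at 28 h, against 67.1, 98.6 and 242 at 4 h. All 3 arrays of 28 h were dim, so only a bound can be given, and signal was at least 6.34-fold lower at 28 h (limma, adjusted p = 7.44e-05). Here and below, the p-value beside a bound belongs to the log2 change of the signals as deposited. The bound itself was not tested. AT1G76640, which the gene table also names calmodulin-like 39, had 6.99, 1.27 and 0.933 at 28 h and 112, 78.6 and 119 at 4 h. Its 4 h arrays lay close together, and the decrease was at least 5.50-fold (adjusted p = 0.0202). That call was missed without replicate 3 of 28 h or without replicate 2 or 3 of 4 h, with adjusted p up to 0.118. AT2G20720 had 1.85, 29.0 and 38.1 at 28 h and 63.9, 156 and 442 at 4 h, a log2 change of -3.69 ± 0.71 (SE, adjusted p = 0.0066). Its arrays spread widely within both times and still did not overlap.

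Enzymes and a transporter were among the other large decreases. BGLU31, a beta-glucosidase, had 6.10, 3.34 and 9.35 at 28 h and 42.0, 29.5 and 97.7 at 4 h, at least 2.68-fold lower (limma, adjusted p = 0.00246). DLAH, a DAD1-like acylhydrolase that cleaves lipids, had 5.55, 1.54 and 11.3 at 28 h and 23.6, 25.2 and 57.2 at 4 h, at least 1.76-fold lower (adjusted p = 0.00602). For both genes every 28 h array was dim and every 4 h array was above that level. AT5G52050, named DTX50 in the gene table for a detoxification efflux carrier, had 6.71, 1.73 and 17.6 at 28 h and 26.2, 54.1 and 121 at 4 h, at least 3.01-fold lower (adjusted p = 0.00789, missed without replicate 2 of 28 h or replicate 2 or 3 of 4 h). The bounds are set by the background level of the 28 h arrays.

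A set of locus names without an assigned symbol completes the largest decreases. AT5G44910 had 1.45, 4.29 and 21.1 at 28 h and 25.3, 70.8 and 50.9 at 4 h, a log2 change of -3.15 ± 0.52 (SE, limma, adjusted p = 0.00224). AT2G23270, AT5G12930 and AT5G06570 were dim on all 28 h arrays, and were at least 3.85-fold, 1.603-fold and 2.09-fold lower (adjusted p = 0.0319, 0.0163 and 0.00698). AT5G06570 kept its call whichever of the 6 arrays was left out. AT5G12930 lost it without replicate 3 of 28 h or replicate 2 or 3 of 4 h (adjusted p up to 0.142), and AT2G23270 lost it in 5 of the 6 omissions, all but replicate 1 of 4 h (adjusted p up to 0.232).

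**Figure D2:**
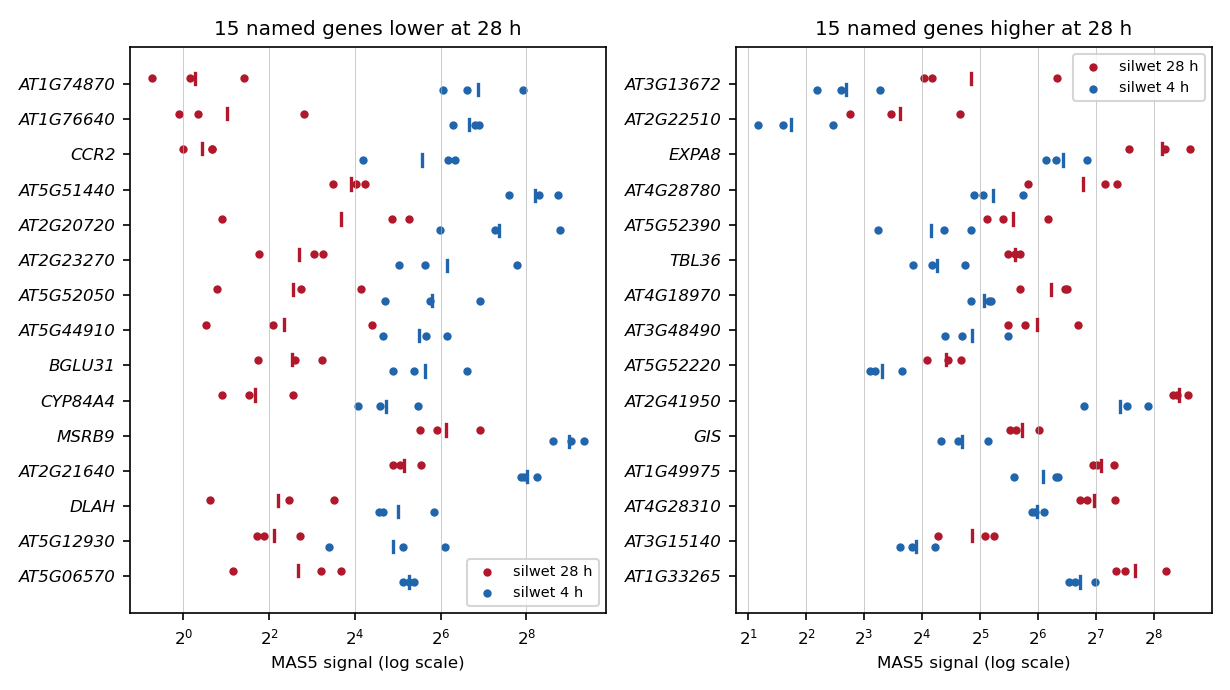
MAS5 signal on a log scale (x axis) of the 15 named genes with the largest decrease (left) and the largest increase (right) at 28 h, 1 point per array and a bar at the mean of the log2 values. Red points (28 h) and blue points (4 h) do not overlap within any of the genes, which the choice of these genes required, and most decreases end below a signal of 20.

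The list of mitochondrial stress genes held more calls than any other list tested. It names genes whose RNA is known to rise when mitochondrial respiration is disturbed, and it was assembled with earlier results of these arrays known, so its direction is not independent evidence. Of its 10 tested members, 8 were called lower, against 3.45% among all probe sets, and the other 2 had negative changes with an unadjusted p above 0.05. The median log2 change over the 10 was -2.08, against -0.01 over all probe sets tested. The summed signal of the list was 817, 726 and 878 at 28 h, against 2431, 2792 and 3652 at 4 h.

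AT5G51440 had signals of 11.3, 16.4 and 18.8 at 28 h and 194, 317 and 427 at 4 h. Every 28 h array was dim, and the decrease was at least 16.1-fold (limma, adjusted p = 0.000432), the largest bound among the genes named here. AT2G21640 had 33.2, 29.4 and 46.7 at 28 h and 247, 235 and 306.02 at 4 h, a log2 change of -2.87 ± 0.31 (SE, adjusted p = 6.6e-05). AT5G43450 was the brightest of the list, with 400, 239 and 214 at 28 h and 1159, 1152 and 1261 at 4 h. Its 4 h arrays agreed closely, and its log2 change was -2.12 ± 0.20 (adjusted p = 2.21e-05). AT2G32020 had 34.1, 31.3 and 42.2 at 28 h and 154, 117 and 254 at 4 h, a log2 change of -2.22 ± 0.22 (adjusted p = 3.55e-05). These 4 genes kept their calls without the replicate block and whichever of the 6 arrays was left out.

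GSTU25, a tau-class glutathione transferase that joins glutathione to reactive compounds, had 19.8, 16.6 and 28.9 at 28 h and 81.9, 118 and 122.8 at 4 h. Its log2 change was -2.32 ± 0.35 (SE, limma, adjusted p = 0.00112). NDB2, an alternative NADH dehydrogenase of the inner mitochondrial membrane that feeds electrons past complex I, had 148, 198 and 240 at 28 h and 326, 402 and 513 at 4 h. The change of NDB2 was -1.09 ± 0.18 (adjusted p = 0.00227), the smallest among the members called. AT2G41380 had 34.8, 31.4 and 63.7 at 28 h and 72.7, 90.2 and 175 at 4 h (-1.35 ± 0.23, adjusted p = 0.00307), with no overlap between the times. AT2G04050 had 14.7, 39.9 and 70.1 at 28 h and 51.7, 165 and 338 at 4 h, so the arrays of the groups overlapped while each replicate number was lower at 28 h. Its log2 change was -2.05 ± 0.40 (adjusted p = 0.00698), and the adjusted p was 0.0634 without replicate 3 of 4 h. The members not called were AT2G04070, with 15.9, 18.6 and 23.6 at 28 h and 21.4, 26.5 and 44.9 at 4 h, and AT5G09570, with 105, 105 and 130 at 28 h and 123.3, 169 and 209 at 4 h. Without the block 6 of the 10 members were called lower, and 5 were called when replicate 2 or replicate 3 was left out of every group.

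**Figure D3:**
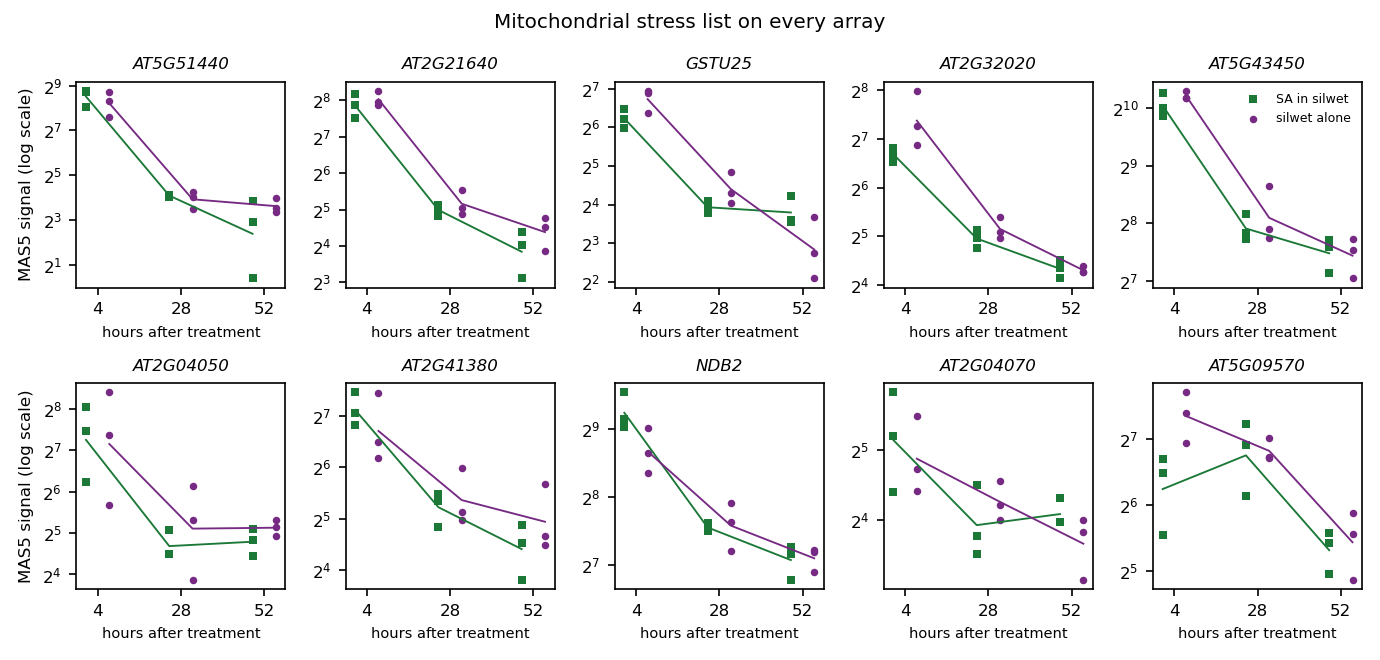
MAS5 signal on a log scale (y axis) of the 10 tested mitochondrial stress genes at 4, 28 and 52 h (x axis), 1 point per array and a line through the means of the log2 values, for SA in silwet (green squares) and silwet alone (purple circles). In silwet the 4 h points lie above the 28 h points in every panel except AT2G04050, AT2G04070 and AT5G09570, where they overlap.

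Genes of touch, calcium and rapid stress signalling were lower in part. This list too was chosen with earlier results of these arrays known, so its direction is not independent evidence. Of 12 members tested, 4 were called lower, against 3.45% of all probe sets, 8 reached an unadjusted p under 0.05, all lower, against 9.81% of all probe sets lower at that level, and 11 had a negative change, against 51.0% of all probe sets. The median log2 change was -1.19. PUB23, a U-box ubiquitin ligase that restrains immune signalling, had 15.6, 23.8 and 45.0 at 28 h and 54.9, 132 and 468 at 4 h. Its level differed about as much between replicates as between times, and within each replicate number it was lower at 28 h, by -2.55 ± 0.30 on the log2 scale (SE, limma, adjusted p = 0.000146). Without the block its adjusted p was 0.196. Calmodulin-like calcium sensors made up the other calls. CML38 had 60.8, 15.03 and 49.6 at 28 h and 143, 194 and 297 at 4 h (-2.50 ± 0.41, adjusted p = 0.00224). CML37 had 23.5, 12.4 and 30.7 at 28 h and 66.5, 75.7 and 108 at 4 h (-1.98 ± 0.43, adjusted p = 0.0144). The groups did not overlap for either gene. CML42 had 103, 70.9 and 54.5 at 28 h and 153, 147 and 148 at 4 h, a smaller change of -1.02 ± 0.23 (adjusted p = 0.0183).

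Calls within the touch list depended on single arrays. CML37 missed the threshold without replicate 2 of 28 h or replicate 2 or 3 of 4 h, with adjusted p up to 0.0861, and CML42 without replicate 2 or 3 of either time, with adjusted p up to 0.131. The list had 2 members called lower without replicate 2 of 28 h and without replicate 2 or 3 of 4 h, 1 when replicate 2 or 3 was left out of every group, and 6 when replicate 1 was. Without the block no member was called. Members not called included STZ, a zinc-finger repressor of stress responses also known as ZAT10, with 326, 80.8 and 207 at 28 h and 242, 407 and 1255 at 4 h. ORA47, an AP2-type regulator of jasmonate synthesis, had 43.7, 22.0 and 15.04 at 28 h and 29.1, 29.3 and 280 at 4 h. In both genes 1 array, replicate 3 of 4 h, stood far above the others. PUB22, a close relative of PUB23, had 6.85, 9.19 and 12.1 at 28 h and 18.8, 26.5 and 40.04 at 4 h and was not called (adjusted p = 0.229). CAF1 entered the list by its symbol only; its probe set belongs to AT2G20020, and it was not called.

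Replicate 3 of 4 h was the high array for most of what fell. Among the 525 probe sets called lower, the highest 4 h array was replicate 3 for 405, replicate 1 for 66 and replicate 2 for 54. The lowest 4 h array was replicate 1 for 362 of them. At 28 h replicate 3 was again the highest for 290. Among the 129 called higher, the highest array was replicate 1 for 91 at 28 h and for 94 at 4 h. The 3' over 5' ratio set replicate 1 apart at both times, and its part in this order was not tested. How the arrays ranked over all probe sets tested was not counted, so the order cannot be called particular to these probe sets.

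A pair of phenylpropanoid enzymes was called lower. CCR2, a cinnamoyl-CoA reductase of the branch that leads to lignin precursors, had 0.997, 1.58 and 1.596 at 28 h and 18.2, 71.8 and 80.7 at 4 h, at least 2.57-fold lower (limma, adjusted p = 0.000713). CYP84A4, a cytochrome P450 of the same family as ferulate 5-hydroxylase, had 2.91, 1.86 and 5.90 at 28 h and 17.0, 24.2 and 44.7 at 4 h, at least 1.43-fold lower (adjusted p = 0.0018). Both were dim on all 28 h arrays and on replicate 1 of 4 h. They were 2 of 4 tested members of the phenylpropanoid list, against 3.45% of all probe sets called lower; HCT, an acyltransferase of lignin synthesis, and 4CL8 had changes of -0.39 ± 0.17 and -0.61 ± 0.26 and were not called.

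MSRB9, a methionine sulfoxide reductase that repairs oxidised methionine, had 122, 46 and 60.2 at 28 h and 527, 393 and 656 at 4 h. All 6 arrays were above the dim level, and its log2 change was -2.88 ± 0.35 (SE, limma, adjusted p = 0.000183). Its relatives on the list were not called. MSRB5 had 430, 230 and 245 at 28 h and 459, 179 and 196 at 4 h, MSRB6 had a change of -0.50 ± 0.24, and MSRB3 of 0.40 ± 0.19. GRX480, a glutaredoxin that binds TGA transcription factors and belongs to both the redox and the SA response list, had 161, 80.1 and 127 at 28 h and 200, 188 and 408 at 4 h (-1.08 ± 0.28, adjusted p = 0.0409). That call was missed without replicate 2 or 3 of either time, with adjusted p up to 0.263. These were the 2 called of 11 redox genes, against 4.3% of all probe sets, and the list's median log2 change was 0.08.

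Cell wall genes changed in both directions. EXPA8, an expansin, a protein that loosens walls during growth, had 190, 292 and 395 at 28 h and 79.4, 70.5 and 115 at 4 h, a log2 change of 1.70 ± 0.27 (SE, limma, adjusted p = 0.00158). XTH18, a xyloglucan endotransglucosylase/hydrolase that cuts and rejoins wall polymers, had 12.7, 6.93 and 13.7 at 28 h and 44.7, 59.5 and 74.9 at 4 h, at least 3.17-fold lower (adjusted p = 0.0342). EXPA8 kept its call in every omission of 1 array, and XTH18 lost it in 5 of 6, all but replicate 1 of 4 h (adjusted p up to 0.17). Of 15 wall loosening genes tested, these were the 2 called, against 4.3% of all probe sets. At an unadjusted p under 0.05, 5 of the 15 were higher at 28 h and 1 was lower, against 7.07% and 9.81% of all probe sets. XTH16 had 121, 107 and 86.1 at 28 h and 87.5, 58.0 and 41.7 at 4 h, and EXPA15 had 58.5, 118 and 105 at 28 h and 57.1, 63.8 and 54.8 at 4 h. Neither was called, with an adjusted p of 0.133 for each.

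Among 24 genes of wall polymer synthesis and acetylation, 2 were called lower and 1 higher, against 3.45% and 0.848% of all probe sets. TBL37 and TBL36 belong to the trichome birefringence-like family of wall acetyltransferases and moved oppositely. TBL37 had 51.8, 41.2 and 84.4 at 28 h and 182, 219 and 307 at 4 h (-2.03 ± 0.33, limma, adjusted p = 0.00183). TBL36 had 51.7, 48.8 and 44.7 at 28 h and 26.7, 17.9 and 14.4 at 4 h (1.34 ± 0.23, adjusted p = 0.00313). The 28 h arrays of TBL36 were close to each other, while replicates 2 and 3 of 4 h were dim. IRX15-L, which acts in xylan synthesis and was the 1 vascular marker tested, had 41.6, 19.6 and 22.2 at 28 h and 108, 62.8 and 37.2 at 4 h (-1.27 ± 0.25, adjusted p = 0.00729, and 0.0671 without replicate 2 of 4 h). Its groups overlapped, and replicate 1 was the highest at both times. ATPMEPCRB, a pectin methylesterase, had 68.3, 46.6 and 43.7 at 28 h and 65.0, 150 and 178 at 4 h (-1.21 ± 0.32, adjusted p = 0.0398), a call missed without replicate 2 or 3 of either time (adjusted p up to 0.237). It was the 1 called of 3 pectin modification genes, against 4.3% of all probe sets.

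Single members of other lists were called, such as 1 of 4 genes of endoplasmic reticulum folding, against 4.3% of all probe sets. BZIP60, a transcription factor of the unfolded protein response in the endoplasmic reticulum, had 536, 181 and 279 at 28 h and 788, 558 and 1029 at 4 h, a log2 change of -1.35 ± 0.26 (SE, limma, adjusted p = 0.00698). The adjusted p of BZIP60 was up to 0.0598 without replicate 3 of either time. LHCB4.3, a minor antenna protein of photosystem II, had 156, 214 and 87.4 at 28 h and 360, 423 and 230 at 4 h (-1.20 ± 0.23, adjusted p = 0.0066, and 0.0549 without replicate 3 of 28 h). It was the only 1 of 8 photosynthesis genes called, against 4.3% of all probe sets. Its paralogue LHCB4.1 had 1943, 4296 and 3832 at 28 h and 2779, 4031 and 3818 at 4 h. Paralogues can cross-hybridise on short probes, which was not tested.

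WRKY47, of the WRKY transcription factors, had 19.2, 32.4 and 33.1 at 28 h and 34.4, 53.0 and 72.3 at 4 h (-0.89 ± 0.19, limma, adjusted p = 0.0133). JMT, which methylates jasmonic acid, had 20.005, 8.60 and 19.8 at 28 h and 39.3, 45.0 and 48.7 at 4 h (-1.55 ± 0.42, adjusted p = 0.0472). SWEET1, a sugar transporter, had 213, 105 and 110 at 28 h and 347, 260 and 173 at 4 h (-0.89 ± 0.23, adjusted p = 0.042). They were the 1 called of 8 WRKY and NAC, 11 jasmonate and 12 starch and sugar genes, against 4.3% of all probe sets. Each of these 3 calls rested on single arrays. JMT lost its call in all 6 omissions of 1 array (adjusted p up to 0.214), SWEET1 in 5, all but replicate 1 of 28 h (up to 0.182), and WRKY47 without replicate 2 or 3 of 28 h or replicate 3 of 4 h (up to 0.101). WRKY6 (adjusted p = 0.0608) and UGT76B1, which glucosylates SA and isoleucic acid (adjusted p = 0.062), came just outside the threshold. UGT76B1 had 38.2, 11.8 and 201 at 28 h and 91.8, 205 and 322.2 at 4 h, and its groups overlapped.

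Of the 31 lists with a tested member, 13 had no call. They held 85 probe sets, of which 19 had an unadjusted p under 0.05 with limma, a level reached by 16.9% of all probe sets tested. UDP-glycosyltransferases were the largest, with 32 tested and 9 at an unadjusted p under 0.05 (8 lower, 1 higher). Abscisic acid, cold and dehydration genes had 3 of 10, senescence and autophagy 2 of 12 and auxin 1 of 6 at that level. The 5 reference genes, used to level other assays, had 0 and a median log2 change of 0.12. Glutathione transferases had GSTU25 as the 1 called of 9, and cytochromes P450 had CYP84A4 as the 1 called of 15, against 4.3% of all probe sets. The 15 include CYP59 and CYP71, symbols also used for cyclophilins, and whether these 2 are cytochromes P450 was not checked.

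**Figure D4:**
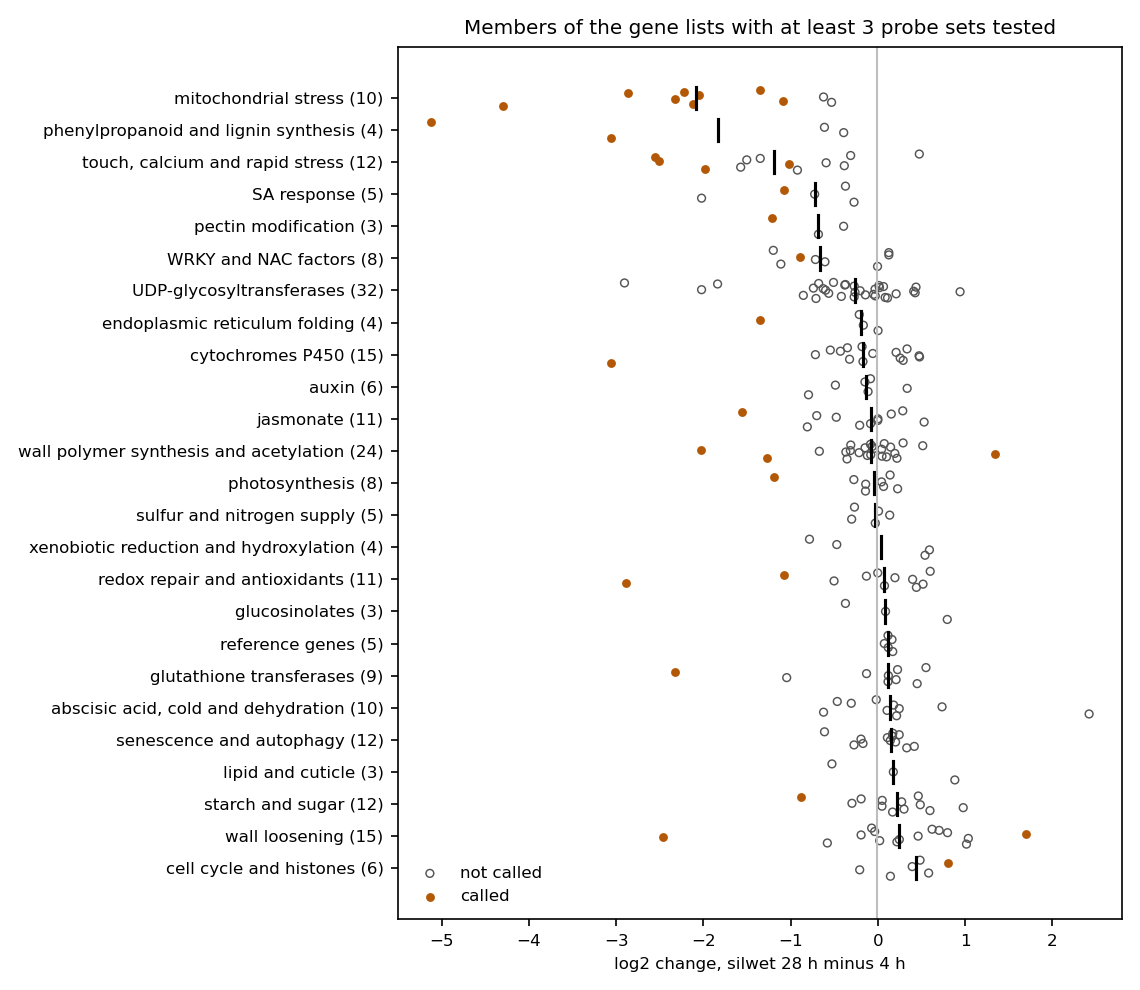
Log2 change, 28 h minus 4 h (x axis), of every tested member of the lists with at least 3 tested members (rows, number tested in brackets). Filled points were called and open points were not, black bars are medians and the grey line is the median of all probe sets. The mitochondrial stress list has 8 filled points below -1, and most other lists straddle 0.

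Increases were fewer and smaller. AT4G28780 had 56.7, 142 and 165 at 28 h and 33.0, 53.6 and 29.9 at 4 h, a log2 change of 1.55 ± 0.31 (SE, limma, adjusted p = 0.00963). AT4G18970 had 51.4, 90.8 and 88.0 at 28 h and 36.4, 35.4 and 28.7 at 4 h (1.16 ± 0.24, adjusted p = 0.0121). In both genes replicate 1 was the lowest of the 28 h arrays. AT4G28310 had 161, 114 and 106 at 28 h and 68.6, 59.8 and 61.9 at 4 h (0.98 ± 0.16, adjusted p = 0.00212). AT1G33265 had 295, 181 and 162 at 28 h and 127, 99.7 and 92.6 at 4 h (0.96 ± 0.18, adjusted p = 0.00566). These last 2 genes kept their calls in every omission of 1 array. AT4G28780 missed it without replicate 3 of either time (adjusted p up to 0.0787), and AT4G18970 without replicate 3 of 28 h or replicate 2 or 3 of 4 h (up to 0.0865).

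GIS, a zinc-finger regulator of trichome initiation in shoots, had 64.9, 49.4 and 45.7 at 28 h and 35.1, 24.7 and 20.1 at 4 h (1.02 ± 0.24, limma, adjusted p = 0.0231). HTB1, a histone H2B, had 207, 178 and 161 at 28 h and 118, 110 and 84.9 at 4 h (0.81 ± 0.18, adjusted p = 0.0172), the only call among 6 cell cycle and histone genes, against 4.3% of all probe sets. Each of these calls was missed in 4 of 6 omissions, GIS without replicate 1 or 3 of 28 h or replicate 2 or 3 of 4 h (adjusted p up to 0.123) and HTB1 without replicate 2 or 3 of 28 h or replicate 1 or 3 of 4 h (up to 0.0982). AT3G13672, named SINA2 in the gene table, had 80.7, 16.3 and 17.9 at 28 h and 9.64, 6.05 and 4.57 at 4 h. All 4 h arrays and 2 of the 28 h arrays were dim, and the increase was at least 1.504-fold (adjusted p = 0.0117, up to 0.077 without replicate 1 of 28 h or replicate 3 of 4 h). AT3G15140 and AT5G52220 were at least 1.53-fold and 1.11-fold higher (adjusted p = 0.0481 and 0.044), with calls lost in 5 of the 6 omissions, all but replicate 1 of 28 h, and in all 6 (adjusted p up to 0.197 and 0.199). AT2G22510 had 25.3, 11.04 and 6.75 at 28 h and 2.24, 5.51 and 3.03 at 4 h (adjusted p = 0.0267), and since 5 of these 6 arrays were dim no fold is given.

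The remaining named increases also depended on single arrays. AT5G52390 had 71.7, 42.1 and 34.96 at 28 h and 28.8, 9.48 and 20.8 at 4 h (1.40 ± 0.29, limma, adjusted p = 0.0113). AT3G48490 had 103, 55.0 and 44.9 at 28 h and 44.8, 21.0 and 25.9 at 4 h (1.13 ± 0.24, adjusted p = 0.0137). Replicate 1 was the highest at both times in each gene. AT2G41950 had 383, 339 and 323 at 28 h and 238, 186 and 110 at 4 h (1.03 ± 0.23, adjusted p = 0.0182), and AT1G49975 had 159, 129 and 123.5 at 28 h and 79.3, 81.0 and 48.0 at 4 h (1.01 ± 0.26, adjusted p = 0.0336). AT5G52390 missed the threshold without replicate 2 of either time (adjusted p up to 0.0862), AT3G48490 without replicate 1 or 2 of 28 h or replicate 2 or 3 of 4 h (up to 0.0933), AT2G41950 without replicate 3 of 28 h or replicate 2 or 3 of 4 h (up to 0.131), and AT1G49975 in all 6 omissions (up to 0.169).

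Plants given SA in silwet offer a second set of arrays at the same times, with no array in common with the silwet comparison, although both changes come from 1 fit that shares the replicate effects. In SA plants 3756 probe sets (24.7%) differed between 28 h and 4 h, 1748 lower (11.5%) and 2008 higher (13.2%). Of the 525 probe sets called lower in silwet, 515 also had a negative change in SA plants and 419 (79.8%) were called lower there, with 1 called higher. All but 4 of the 129 called higher in silwet had a positive change in SA plants, and 99 (76.7%) were called higher. The share of all probe sets with the same sign in both treatments was not counted. The median log2 change in SA plants was -1.30 for the 525 and 0.96 for the 129. The arrays of SA plants at 28 h and 4 h did not overlap for 70.9% of the 525 and 69.8% of the 129, against 26.1% of all probe sets tested. Read the other way, 24% of the lower calls and 4.93% of the higher calls of SA plants were called in that direction in silwet. Without the replicate block the SA comparison had 1769 calls.

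The mitochondrial list had 9 of 10 members called lower in SA plants, against 11.5% of all probe sets, with a median log2 change of -2.02, against 0.08 over all probe sets. AT2G21640 had 34.7, 32.3 and 28.5 in SA plants at 28 h and 288, 232 and 184 in SA plants at 4 h, close to its levels in silwet. The touch list had 7 of 12 called lower in SA plants, against the same 11.5%, PUB22 and PUB24 among them. Both lists were chosen with earlier results of these data known, so these counts are not independent evidence either. Wall loosening genes had 7 of 15 called higher in SA plants, where 13.2% of all probe sets were, and 1 in silwet, though whether the lists differ between treatments was not tested.

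The change from 4 to 28 h itself differed between treatments for 119 probe sets (0.782%), 61 with a larger value in SA plants (0.401%) and 58 with a smaller one (0.381%). All 119 were also called for SA against silwet at 4 h, and 0 were at 28 h. Those comparisons share arrays with the difference, so they are not separate evidence. MSRB9 had 201, 63.7 and 124 in SA plants at 28 h and 167, 109 and 313 in SA plants at 4 h, a change of -0.62 ± 0.35 that was not called, beside -2.88 ± 0.35 in silwet. The difference of the changes was 2.27 ± 0.50 on the log2 scale (SE, limma, adjusted p = 0.0482). At 4 h the level of MSRB9 was 167 to 313 in SA plants and 393 to 656 in silwet. AT1G76640 had 9.35, 0.713 and 13.98 in SA plants at 28 h and 10.6, 1.31 and 69.2 in SA plants at 4 h, and its difference of changes was not called (adjusted p = 0.283). Without the block 4 differences were called. Leaving replicate 1, 2 or 3 out of every group gave 20, 0 and 6, and leaving out 1 silwet array of 4 h or 28 h gave 17 to 110.

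**Figure D5:**
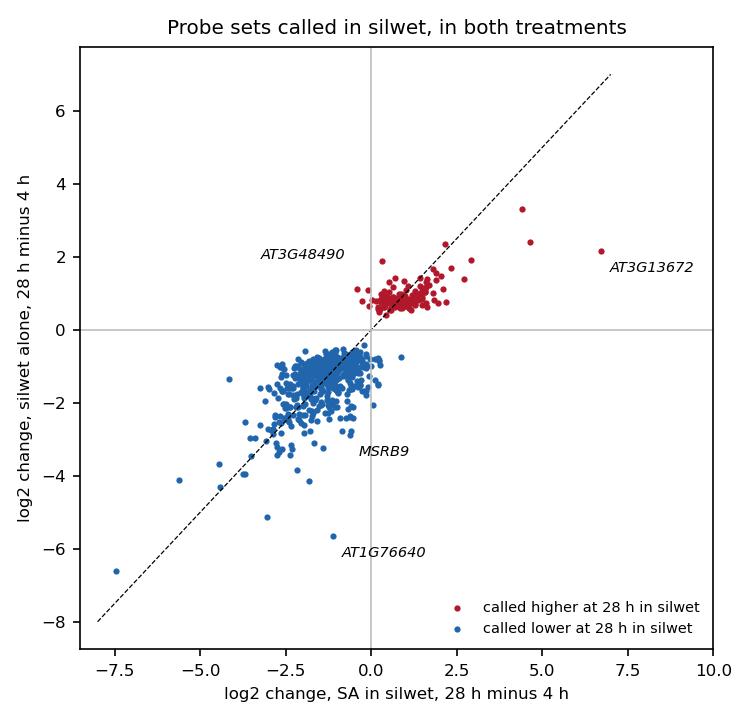
Log2 change, 28 h minus 4 h, in plants given SA in silwet (x axis) and in plants given silwet alone (y axis) for the 654 probe sets called in silwet, red where higher and blue where lower at 28 h in silwet. The dashed line marks equal changes, and most points lie on the same side of 0 in both treatments, with MSRB9 and AT1G76640 far from the line.

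At 52 h the silwet plants were near their 28 h levels. Against 28 h no probe set was called at 52 h with limma, with 1048 at an unadjusted p under 0.05, and 0 and 238 without the block. Against 4 h there were 1148 calls at 52 h (7.55%), 857 lower (5.63%) and 291 higher (1.91%). These comparisons share arrays with that of 28 h against 4 h, so their values are given side by side. The median log2 change from 28 to 52 h was -0.15 for the probe sets called lower at 28 h and -0.11 for those called higher. AT5G51440 had 194, 317 and 427 at 4 h, 11.3, 16.4 and 18.8 at 28 h, and 11.6, 10.2 and 15.6 at 52 h. PUB23 had 54.9, 132 and 468 at 4 h, 15.6, 23.8 and 45.0 at 28 h, and 11.5, 21.1 and 39.5 at 52 h. EXPA8 had 79.4, 70.5 and 115 at 4 h, 190, 292 and 395 at 28 h, and 276, 346 and 444 at 52 h. In each gene the 28 h and 52 h arrays overlapped and both lay apart from those of 4 h.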

How the data were processed

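RNA of 18 samples was hybridised to ATH1 arrays, 3 per group. The deposited table gives 1 linear intensity per probe set and array, made with MAS5 per the submitters' processing notes. Its version and target are not given in the sources used here. Every array had a trimmed mean near 100, so arrays had been scaled to a common level before deposit, and the table has no detection calls. MAS5 leaves dim probe sets noisy on a log scale, and the number of arrays limits the precision. No arrays were identical.

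Here log2 was taken without an offset. Of 22746 probe sets other than the 64 controls, 15212 passed the filter on dim signal, which asks for 3 arrays on which the probe set is above that array's 40th percentile. The model, in Limma 3.58.1 under R 4.3.3 (lmFit, eBayes with an intensity trend), took the 18 arrays together and estimated 6 group means and an effect for each replicate number. P-values were adjusted by Benjamini-Hochberg over all probe sets tested. Replicate numbers come from the titles, and the rule of this comparison set them as a block. Every same-numbered pair of 28 h and 4 h correlated in its deviations at 0.39 or more. Replicates 2 and 3, with unequal numbers, reached 0.199 and 0.279. In SA plants replicate 2 reached only 0.09. Silwet arrays of 52 h correlated with same-numbered ones of 4 h at 0.30, 0.07 and 0.39 in replicates 1 to 3. With those of 28 h they correlated at 0.30, 0.16 and 0.43. The block is estimated from all groups, and agreement by number was thus weaker in some of them. Data for 28 h against 4 h in silwet were also simulated, with 200 of 15212 probe sets changed. The fit recovered 96% of log2 changes of 2 and 55% of 1, and 5 of its 156 calls were unchanged probe sets. Without the block 74% and 16% were recovered. The simulated arrays had additive replicate effects and normal spread, as the fit assumes. They cannot show whether the block suits the real arrays.

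A gene dim on all 3 arrays of a group has its fold as a bound, with dim values raised to the 40th percentile of their array. The fit used the values before this raising, so its p-values do not test the bounds. The platform annotation gives 13513 probe sets 1 gene, 503 several and 8730 none, and 13436 matched the TAIR10.1 gene table. Of those tested, 8305 (54.6%) had 1 gene. Genes named are the 15 lower and 15 higher called with the largest change, 1 gene and no overlap between arrays, the 5 and 5 with the largest difference between treatments, and members of 36 gene lists, 5 of which had no tested member (heat shock, MATE and ABC transporters, aquaporins, ribosomal proteins, flower and seed markers). The comparison, members and lists were chosen with earlier results of these data known. List members were found by symbol or locus, and of 324 with a named probe set 237 were tested. A family can therefore have tested genes outside its list, as Hsp70-2 and the efflux carrier DTX50 were here. Some symbol patterns also took unrelated genes, such as PRP39, CAF1, NTL, PDF1A and PDF1B, and the lists were kept as written. Alternatives covered the block, the arrays in the fit, scaling, filter, offset, trend, array weights, the 3' over 5' ratio and omitted arrays.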

Additional observations from a re-analysis of the deposited data

Results flagged for a closer look

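Some named genes changed differently between 4 and 28 h in plants given SA and in plants given silwet alone, by limma's test of the difference itself (log2, SA change minus silwet change). For 3 of them silwet alone also changed. The difference was 2.27 for MSRB9, the methionine sulfoxide reductase that fell in silwet. It was 4.56 ± 0.64 for AT3G13672 (SE, adjusted p = 0.00536), whose change was 6.72 in SA plants and 2.16 in silwet, with both 4 h groups dim on every array, so these sizes are no bounds. It was -1.55 ± 0.34 for AT3G48490 (adjusted p = 0.0482), with 62.7, 50.6 and 63.1 in SA plants at 28 h and 108, 63.7 and 69.8 at 4 h, beside 103, 55.0 and 44.9 in silwet at 28 h and 44.8, 21.0 and 25.9 at 4 h.

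The other genes had silwet changes of at most 0.80 in size that were not called, and differed through the SA plants. The difference was -3.45 for AT3G28510, -3.40 for AT5G03350, -2.29 for AT1G15790, -2.29 for AT5G44570 and -2.20 for AT4G32870. AT5G03350 had 141, 110 and 322.5 at 28 h and 2167, 3102 and 2307 at 4 h in SA plants, while silwet plants had 333, 202 and 138 at 28 h and 388, 214 and 294 at 4 h. The difference was 3.04 for AT1G52000, 2.43 for ATSPS4F, a sucrose phosphate synthase, and 2.32 for AT5G62360. AT5G62360 had 1219, 983 and 1086 at 28 h and 280, 128 and 197 at 4 h in SA plants, while silwet plants had 1019, 859 and 1146 at 28 h and 1240, 656 and 831 at 4 h.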

How the results depend on the processing

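Directions of the 51 named called genes held in every alternative that tested them, while calls did not. The stricter filter on low signal tested 39 of the 51. Without the replicate block 92 probe sets were called (5 higher, 87 lower), with 1769 in SA plants, 4 for the difference between treatments and 0 in the touch list, and 37 named genes lost their call. The 14 that kept it were AT1G74870, AT2G21640, AT2G32020, AT5G43450, AT5G51440, CCR2, GSTU25, CYP84A4, MSRB9, TBL37, EXPA8, AT5G06570, TBL36 and NDB2. Fits to the 6 arrays compared gave 242 calls (9 higher, 233 lower), and to the 9 silwet arrays 291 (23 and 268). The 12 arrays of 4 and 28 h gave 77 differences. Array weights gave 1817 calls (707 and 1110; 61.1% lower, against 80.3%), 5772 in SA plants and 450 differences. Asking for 2-fold left 416 (36 higher), and 1839 in SA plants. Differences numbered 54 without the intensity trend and 52 with the 3' over 5' ratio. Median centring moved the median of all probe sets to 0.08 and gave 577 calls, 67.4% lower, of which 515 were among the 654; quantile normalization gave 634, 73.8% lower.

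Leaving out 1 array or 1 replicate number gave 79 to 1351 calls (6 to 497 higher, 72 to 854 lower), 1276 to 4622 in SA plants, 0 to 110 differences, 5 to 8 mitochondrial and 1 to 6 touch genes called lower. Of the 51 named genes 23 lost their call in none of the 6 omissions of 1 array. The cause of these shifts was not tested, apart from the fewer arrays or larger fold an alternative itself brings. Signal near background limits the 39 lower probe sets dim on every 28 h array and the 8 higher ones dim on every 4 h array, whose size is unknown.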

Other observations

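Genes outside the naming rule, chosen after their values were seen, are given singly. JAL23, a jacalin-related lectin, which binds carbohydrates, had 136, 49.8 and 104 at 28 h and 438, 337 and 272 at 4 h (log2 change -1.95 ± 0.29, SE, limma, adjusted p = 0.00103), and JAL33 and JAL34 of the same family fell by 1.20 and 1.15 (adjusted p = 0.0066 and 0.00724), JAL34 with its call lost without replicate 2 of 4 h (adjusted p = 0.0562). The other lectins of the family were not counted. BIK1, a receptor-associated kinase of immune signalling, had 41.2, 86.7 and 100 at 28 h and 177, 183 and 318 at 4 h (-1.62 ± 0.20, adjusted p = 0.000255). Hsp70-2, a heat shock chaperone, fell by 1.54 on the log2 scale and kept its call in every omission of 1 array. Fes1A and ATERDJ3B fell by 1.05 and 0.58, with their calls lost in 5 and in all 6 of these omissions (adjusted p up to 0.156 and 0.208). Several of these calls were lost without the block. The limma adjusted p was then 0.218 for JAL23, 0.202 for JAL34, 0.0735 for BIK1, 0.236 for Hsp70-2 and 0.1425 for Fes1A. JAL33 stayed just under the threshold, at 0.049989. Among increases, STOMAGEN, a secreted peptide that promotes stomata, had 320, 187 and 188 at 28 h and 159, 122.8 and 101 at 4 h (0.84 ± 0.18, adjusted p = 0.0132, up to 0.0683 without replicate 3 of either time).

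Of 2766 pairs of neighbouring protein-coding loci with both tested, 11 pairs had both members called. Both members were lower in 9 and both higher in 1, and since most calls were lower this says little of neighbours. Among those lower were AT1G76640 with CML38, AT2G32020 with AT2G32030, AT2G39650 with BIK1 and JAL33 with JAL34, and the opposite pair was AT1G33260 (-0.99) with AT1G33265 (0.96). Neighbours can be similar in sequence and share probe signal, which was not tested.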
